A study of Homo sapiens with 12 samples.

Results

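The SLC22 family holds membrane carriers of small charged molecules, and the genes followed here are SLC22A2, SLC22A3, SLC22A4, SLC22A5, SLC22A15, SLC22A16, SLC22A17 and SLC22A18. The rule that chose them used measured values in 1 respect: SLC22A4 was selected on its higher signal with EBF1 in both cell lines studied. The others are its relatives, and SLC22A5 is also its paralogue and genome neighbour. Of the 8 genes, 7 had a row of their own, among 20546 array rows with a gene symbol. SLC22A3 was not analysed here. The row of SLC22A18 carries the symbol SLC67A1, the current RefSeq name of that gene, and was matched through its gene ID.

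The data are 12 arrays that probe whole transcripts, made from the established Hodgkin lymphoma lines L-1236 and L-428. Hodgkin lymphoma is a B-cell-derived tumour with much of the B-cell programme silenced. The groups were L-428 tGFP/EBF1, L-428 tGFP, L-1236 tGFP/EBF1 and L-1236 tGFP, with 3 arrays each. The design text calls the samples independent without naming separate cultures or transductions, so p-values measure the spread between these arrays, which may be technical. All cells were transduced, with a vector for the fluorescent protein tGFP alone or with tGFP joined through an internal ribosome entry site to EBF1, a transcription factor of early B-cell development, then grown for 8 days and sorted for tGFP, so the controls carry tGFP as well. Each group comes from a single line, and the level of EBF1 in tGFP/EBF1 cells is that set by the vector.

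In this family SLC22A4 (OCTN1) is known as the carrier of ergothioneine, a sulphur-containing antioxidant taken up from food. SLC22A5 (OCTN2) is the sodium-dependent importer of carnitine, which cells need to bring long-chain fatty acids into mitochondria, and its loss causes primary carnitine deficiency. SLC22A16 is a further carnitine carrier best known from testis, SLC22A2 (OCT2) takes up organic cations in the kidney, and SLC22A15 is a less studied relative. The label of organic cation transporters suits the remaining members less well: SLC22A17 is known as a receptor for the siderophore-binding protein lipocalin 2, and SLC22A18 is an imprinted gene of the Beckwith-Wiedemann region.

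SLC22A4 and SLC22A5 lie side by side on chromosome 5 in the same orientation, and their upstream sequences are shown because the signals of the pair differed in their response to EBF1. Each stretch is the 250 bases before the RefSeq gene start in GRCh38.p14, on the plus strand, and capitals mark the RUNX motif TGTGGT, the only motif searched that was found in either.
SLC22A4, chr5:132294144-132294393: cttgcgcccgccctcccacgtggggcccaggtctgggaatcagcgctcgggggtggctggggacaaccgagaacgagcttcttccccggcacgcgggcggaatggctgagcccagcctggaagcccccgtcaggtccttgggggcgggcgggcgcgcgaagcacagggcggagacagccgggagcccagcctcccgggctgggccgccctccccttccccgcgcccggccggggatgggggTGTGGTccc
SLC22A5, chr5:132369460-132369709: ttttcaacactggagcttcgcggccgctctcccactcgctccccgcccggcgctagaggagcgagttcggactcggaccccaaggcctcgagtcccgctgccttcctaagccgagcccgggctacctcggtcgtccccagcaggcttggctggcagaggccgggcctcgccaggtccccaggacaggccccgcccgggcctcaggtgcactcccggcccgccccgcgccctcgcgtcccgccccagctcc

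These stretches are rich in G and C, 76.0% for SLC22A4 and 74.0% for SLC22A5. Motifs were searched on both strands of windows of 300 bases, which run 50 bases past the gene start. The EBF core, CCCNNGGG with T before it and A after it, was in none of the 9 windows that RefSeq gives for the 7 members, and was in 1.21% of 35116 windows of all genes. The shorter form without the flanking bases, which every match of the longer one contains, was in 2 member windows, those of SLC22A15 and SLC22A17, against 19.1% of all windows. The RUNX motif TGTGGT, or ACCACA on the other strand, was in the windows of SLC22A4 (starting 9 bases before the gene start) and SLC22A16, against 13.1% of all windows. A match is a string of letters and not a binding site, and its absence concerns these windows alone.

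The transduced gene was checked first. EBF1 signal was 12.96, 12.98 and 12.93 on the log2 scale in L-428 tGFP/EBF1 cells, against 8.63, 8.37 and 8.34 in L-428 tGFP cells. It was 13.07, 13.27 and 13.10 in L-1236 tGFP/EBF1 cells, against 7.24, 7.13 and 7.16 in L-1236 tGFP cells. The EBF1 row is also annotated with PDGFRB. The Hodgkin cell genes TNFRSF8, FUT4, IRF4 and CCL17 lay above the array median on all 12 arrays, by at least 0.71. The B-cell gene MS4A1 and the T-cell gene CD3E lay below it on all of them, and CD79B between -0.34 and 0.024 of it. With EBF1, 0 of these 7 markers passed in L-428 (limma, 0 at an unadjusted p under 0.05). An adjusted p of 0.05 was reached by 4.34% of all rows in L-428 and by 9.64% in L-1236. In L-1236 TNFRSF8 (0.51, adjusted p = 6.54e-05) and CD79B (0.26, adjusted p = 0.0123) rose and FUT4 fell (-0.22, adjusted p = 0.0349), and their part in the results was not tested. Array medians lay between 7.19 and 7.31. Among L-1236 tGFP/EBF1 arrays, replicate 1 had an interquartile range of 2.17, where its partners had 2.31 and 2.26. Among L-428 tGFP arrays, replicate 3 had 2.28, where its partners had 2.49 and 2.47.

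SLC22A4 had a signal of 8.10, 7.95 and 8.05 in L-428 tGFP/EBF1 cells, against 7.29, 7.26 and 7.27 in L-428 tGFP cells (log2, replicates 1 to 3). In L-1236 tGFP/EBF1 cells it had 9.35, 9.80 and 9.68, against 7.24, 7.37 and 7.28 in L-1236 tGFP cells. No array with EBF1 overlapped with a control array of the same line, and the L-1236 tGFP/EBF1 arrays lay above all others. In the order of group means, L-1236 tGFP/EBF1 was followed by L-428 tGFP/EBF1 with no overlap of arrays, and then by the control groups, which overlapped with each other.

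**Figure D1:**
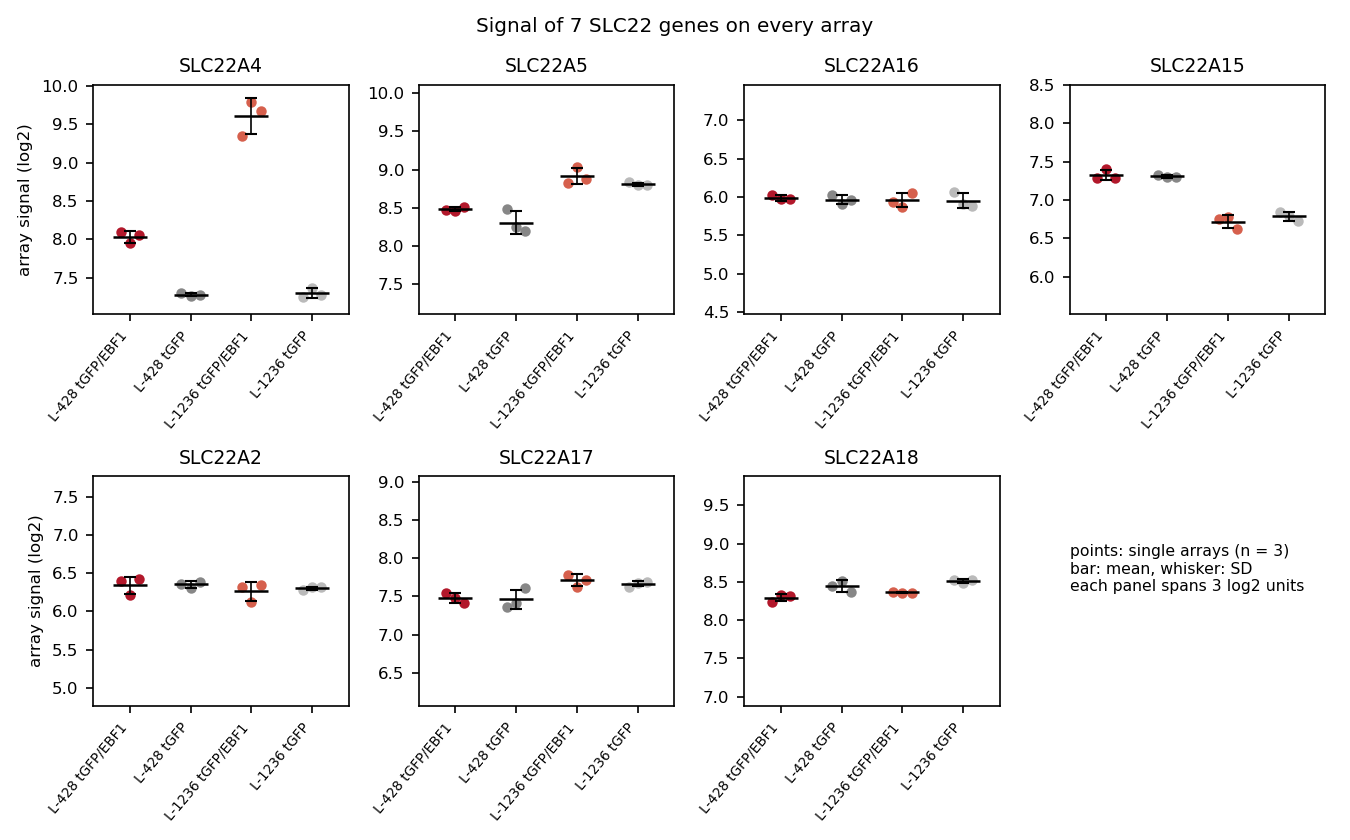
Array signal (log2) of 7 SLC22 genes in the 4 groups; points are single arrays, bars are means and whiskers SD (n = 3), and every panel spans the same 3 log2 units. SLC22A4 is set apart by its tGFP/EBF1 arrays (8.03 ± 0.076 in L-428, 9.61 ± 0.23 in L-1236), while its control means lie at 7.28 and 7.30; SLC22A5, SLC22A17 and SLC22A15 are arranged by line.

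The mean difference of SLC22A4 was 0.76 ± 0.086 in L-428 (tGFP/EBF1 minus tGFP, log2 ± SE), a size of 1.69-fold, and 2.31 ± 0.086 in L-1236, or 4.97-fold. These values chose the gene and are given as a description with no test. The size in L-428 is under the 2-fold limit that the study's design text sets, although the gene is of interest for both lines. In L-428, 32 rows had a larger positive difference, and in L-1236 EBF1 alone did. The effect in L-428 minus the effect in L-1236 was -1.56 ± 0.12 on the log2 scale, also with no test; 5.16% of all rows passed an adjusted p of 0.05 for this difference (limma). The control signal was close to the array median, on 3 of the 6 control arrays above it. No background signal was used here, so a fold change taken from such a level can be understated. Bulk arrays do not tell fewer cells with a transcript from less of it per cell.

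Among the tGFP/EBF1 arrays, the one with the most EBF1 signal was not always the one with the most SLC22A4 signal. In L-1236 tGFP/EBF1 cells replicate 2 had both the highest EBF1 signal (13.27) and the highest SLC22A4 signal (9.80). In L-428 tGFP/EBF1 cells replicate 2 again had the highest EBF1 signal (12.98), with the lowest SLC22A4 signal (7.95). EBF1 averaged 12.96 ± 0.027 there (SD, n = 3), so the order of its arrays rests on small differences. A link between these signals was not tested. The lowest SLC22A4 value of the L-1236 tGFP/EBF1 cells, 9.35, is from replicate 1, the array with the narrow interquartile range. Without that array the difference in L-1236 was 2.44. The part of this array in the spread was not tested.

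SLC22A5, the carnitine importer next to SLC22A4, had 8.47, 8.46 and 8.51 in L-428 tGFP/EBF1 cells, against 8.48, 8.25 and 8.19 in L-428 tGFP cells. It had 8.83, 9.03 and 8.88 in L-1236 tGFP/EBF1 cells, against 8.83, 8.80 and 8.80 in L-1236 tGFP cells. The arrays with and without EBF1 overlapped in both lines. The differences were 0.18 ± 0.072 in L-428 and 0.10 ± 0.072 in L-1236 (log2 ± SE). The value for L-428 moved between 0.12 and 0.26 over the alternatives, the highest without replicate 1 of L-428 tGFP, which had 8.48. Set side by side, the difference of SLC22A4 was larger than that of SLC22A5 by 0.58 in L-428 and by 2.21 in L-1236, a comparison of differences and not of levels.

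SLC22A18 was the other member whose arrays did not overlap, and it was lower with EBF1. It had 8.24, 8.33 and 8.31 in L-428 tGFP/EBF1 cells, against 8.45, 8.52 and 8.36 in L-428 tGFP cells. It had 8.37, 8.36 and 8.36 in L-1236 tGFP/EBF1 cells, against 8.52, 8.48 and 8.52 in L-1236 tGFP cells. The differences were small and alike in size, -0.15 ± 0.057 in L-428 and -0.15 ± 0.057 in L-1236 (log2 ± SE), and the value in L-1236 was -0.11 after quantile normalization.

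The other carriers showed little difference with EBF1. SLC22A16 kept within 5.87 and 6.06 over all 12 arrays, SLC22A2 within 6.12 and 6.42, and both were below the array median on every array. SLC22A15 differed by 0.015 ± 0.062 in L-428 and by -0.074 ± 0.062 in L-1236 (log2 ± SE), and SLC22A17 by 0.018 ± 0.069 and 0.045 ± 0.069. For these 4 genes the arrays with and without EBF1 overlapped in both lines.

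Over the 7 members, SLC22A4 was higher and SLC22A18 lower without overlap of arrays in each line, while 18.3% of all rows had no overlap in L-428 (11.3% higher, 6.98% lower). In L-1236 26.7% had none (11.6% higher, 15.1% lower). Of all rows, 2.3% were higher and 2.21% lower without overlap in both lines. An adjusted p of 0.05 with a 2-fold change was reached by 0.0973% of the table for L-428 and by 0.146% for L-1236, and the adjusted p alone by 4.34% (L-428) and 9.64% (L-1236) (limma). As SLC22A4 was picked by these contrasts, the members were not tested in them and nothing is read from the counts. The median difference of the members was 0.018 in L-428 and 0.0054 in L-1236, against 0.0037 and 0.0080 over all rows.

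**Figure D2:**
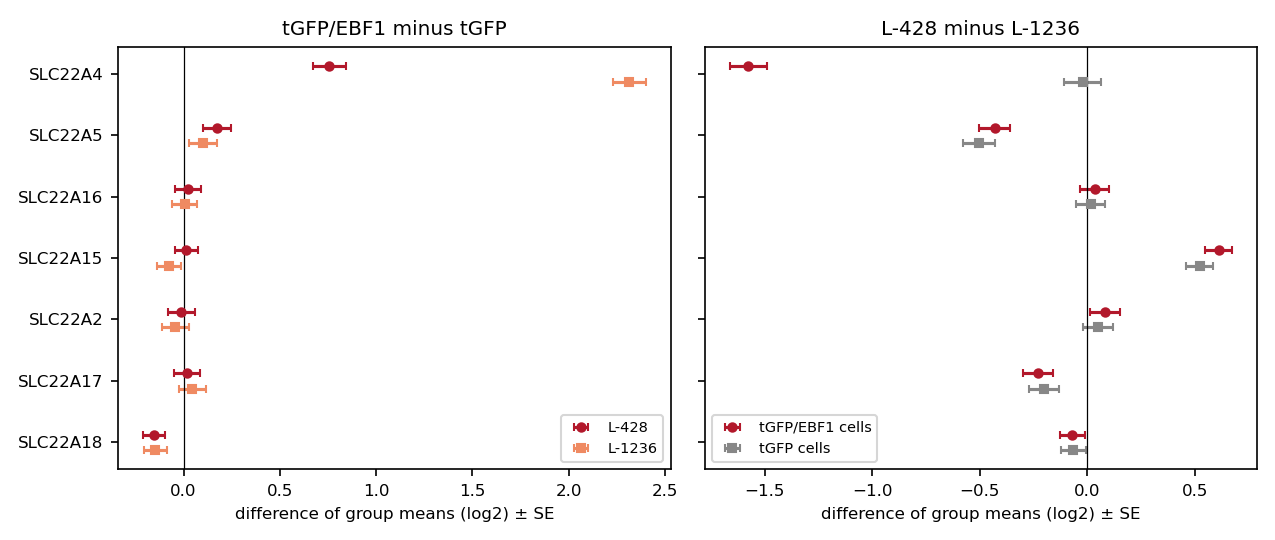
Differences of group means (log2) with their standard errors for the 7 genes, at left tGFP/EBF1 minus tGFP in each line and at right L-428 minus L-1236 in tGFP/EBF1 and in tGFP cells. SLC22A4 stands apart at left (0.76 and 2.31) and differs between the lines only in tGFP/EBF1 cells (-1.58, against -0.021 in tGFP cells). Both with and without EBF1, SLC22A5 is lower and SLC22A15 higher in L-428 than in L-1236.

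Apart from SLC22A4, the rule that chose the genes used no values of control cells, and differences between the lines in them were tested. Earlier results of these data were known at that choice. SLC22A5 was lower in L-428 tGFP cells, 8.31 ± 0.15, than in L-1236 tGFP cells, 8.81 ± 0.020 (SD, n = 3; log2 difference -0.50 ± 0.072 SE, limma, adjusted p = 7.59e-06). SLC22A15 was higher in L-428 tGFP cells, 7.31 ± 0.017, than in L-1236 tGFP cells, 6.79 ± 0.060 (SD, n = 3; difference 0.52 ± 0.062, limma, adjusted p = 6.9e-07). Both kept their side of the threshold under all 13 alternatives. SLC22A15 lay above the array median on the L-428 arrays and below it on the L-1236 arrays.

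SLC22A17 was lower in L-428 tGFP cells, 7.46 ± 0.13, than in L-1236 tGFP cells, 7.67 ± 0.033 (SD, n = 3; difference -0.20 ± 0.069, limma, adjusted p = 0.02). This call was lost after median centring (adjusted p = 0.0671). It was also lost without replicate 1 or 2 of L-428 tGFP or without replicate 2 or 3 of L-1236 tGFP, with adjusted p between 0.0543 and 0.115 (limma).

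SLC22A4 differed by -0.021 ± 0.086 between the control groups (log2 ± SE). It is given with no test, because its control arrays are part of the contrasts that chose it. The sign turned under both scaling alternatives (0.035 after quantile normalization and 0.037 after median centring). The 95% intervals (limma) were -0.19 to 0.055 for SLC22A18, -0.097 to 0.20 for SLC22A2 and -0.12 to 0.15 for SLC22A16. Among the members tested, 1 was higher and 2 were lower in L-428 control cells at an adjusted p of 0.05. That share lies near the 47.9% of all rows that passed (26.1% higher, 21.7% lower).

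In tGFP/EBF1 cells the same 3 carriers passed between the lines, each in the same direction as in control cells. SLC22A5 was lower in L-428 tGFP/EBF1 cells, 8.48 ± 0.024, than in L-1236 tGFP/EBF1 cells, 8.91 ± 0.10 (SD, n = 3; difference -0.43 ± 0.072, limma, adjusted p = 4.6e-05). SLC22A15 was higher in L-428 tGFP/EBF1 cells, 7.32 ± 0.066 against 6.71 ± 0.086 in L-1236 tGFP/EBF1 cells (SD, n = 3; difference 0.61 ± 0.062, limma, adjusted p = 7.9e-08). SLC22A17 was lower by 0.23 (difference -0.23 ± 0.069, limma, adjusted p = 0.00892), a call lost without replicate 3 of L-428 tGFP/EBF1 (adjusted p = 0.0531). Of the 6 members tested, 1 was higher and 2 were lower, where 50.5% of all rows passed (28.2% higher, 22.3% lower). SLC22A4 differed by -1.58 ± 0.086 here, given with no test because its tGFP/EBF1 values chose it.

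The rest of the family was read as a comparison. Of 14 other SLC22 genes, 0 passed in L-428 with EBF1 and 0 had an unadjusted p under 0.05 (limma), and their differences lay between -0.12 and 0.097. The nearest were SLC22A24 (-0.12, adjusted p = 0.636) and SLC22A13 (-0.085, adjusted p = 0.667), a relative of the organic anion carriers. In L-1236, 1 of the 14 rose and 0 fell. The share of all rows that passed was 4.34% in L-428 and 9.64% in L-1236. The riser was SLC22A10, with 6.68, 6.76 and 6.63 in L-1236 tGFP/EBF1 cells, against 6.34, 6.29 and 6.36 in L-1236 tGFP cells (difference 0.36 ± 0.057, limma, adjusted p = 0.000264). All of these values are below the array medians, and the gene was left out by the filter on dim rows. The list's median was -0.018 in L-428 and 0.055 in L-1236. Between the control groups SLC22A10 (-0.27), SLC22A23 (-0.26) and the pseudogene SLC22A20P (-0.20) were lower in L-428 and none was higher (limma, adjusted p = 0.000459, 0.00373 and 0.0161). In that contrast 47.9% of all rows passed. The call of SLC22A20P was lost after median centring or without replicate 1 of either control group. The filter on dim rows left SLC22A20P out as well.

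Carriers outside the family that also move organic cations, choline or carnitine changed in part. Of the 12 with a row, 1 was called higher and 0 lower in L-428, while L-1236 had 2 higher and 1 lower, against 4.34% and 9.64% of all rows that passed. SLC47A1, which exports organic cations from kidney and liver cells as MATE1, fell in L-1236. It had 9.87, 10.05 and 10.00 in L-1236 tGFP/EBF1 cells, against 10.57, 10.58 and 10.71 in L-1236 tGFP cells (difference -0.65 ± 0.082, limma, adjusted p = 2.85e-05). The choline transporter-like genes SLC44A2 (0.45 ± 0.069, limma, adjusted p = 0.000207) and SLC44A4 (0.25 ± 0.067, adjusted p = 0.0228) rose in L-1236, and SLC44A1 (0.27 ± 0.076, adjusted p = 0.0498) in L-428. The calls of SLC44A4 and SLC44A1 did not hold throughout. SLC44A4 was also left out by the filter on dim rows. SLC44A4 was lost with every row tested (adjusted p = 0.0542), and without replicate 2 or 3 of L-1236 tGFP or replicate 1 or 3 of L-1236 tGFP/EBF1. SLC44A1 was lost without any single one of the 6 L-428 arrays other than replicate 1 of tGFP, and with median centring, every row tested, only the 6 arrays compared or a replicate block (limma, adjusted p from 0.0617 to 0.125).

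Genes that make carnitine or use it were compared next, in contrasts that 4.34% of all rows passed in L-428 and 9.64% in L-1236. Of 11 genes of carnitine synthesis and acyl transfer, 0 passed in L-428 (limma, 3 at an unadjusted p under 0.05), with CROT (-0.16, adjusted p = 0.197) and CRAT (-0.14, adjusted p = 0.232) nearest. In L-1236, 1 rose and 0 fell. It was SLC25A20, the carnitine-acylcarnitine exchanger of the inner mitochondrial membrane, with 8.43, 8.49 and 8.42 in L-1236 tGFP/EBF1 cells, against 8.07, 8.08 and 8.05 in L-1236 tGFP cells (difference 0.38 ± 0.059, limma, adjusted p = 0.000262). After quantile normalization 4 of the 11 passed in L-1236.

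Of 16 genes of mitochondrial fatty acid oxidation and fatty acid activation, 0 rose and 1 fell in each line. For comparison, 4.34% of all rows passed in L-428 and 9.64% in L-1236. The gene was ACSL4 in both lines, an acyl-CoA synthetase that favours arachidonic acid. It had 9.14, 9.17 and 9.14 in L-428 tGFP/EBF1 cells, against 9.46, 9.48 and 9.28 in L-428 tGFP cells (difference -0.26 ± 0.067, limma, adjusted p = 0.0341). In L-1236 it had 8.98, 9.17 and 9.10 in tGFP/EBF1 cells, against 9.36, 9.33 and 9.45 in tGFP cells (difference -0.30 ± 0.067, limma, adjusted p = 0.00613). In L-428 the call was lost with median centring, every row tested, only the 6 arrays compared or a replicate block (limma, adjusted p from 0.056 to 0.157), and without any single one of the 6 arrays other than replicate 3 of tGFP.

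**Figure D3:**
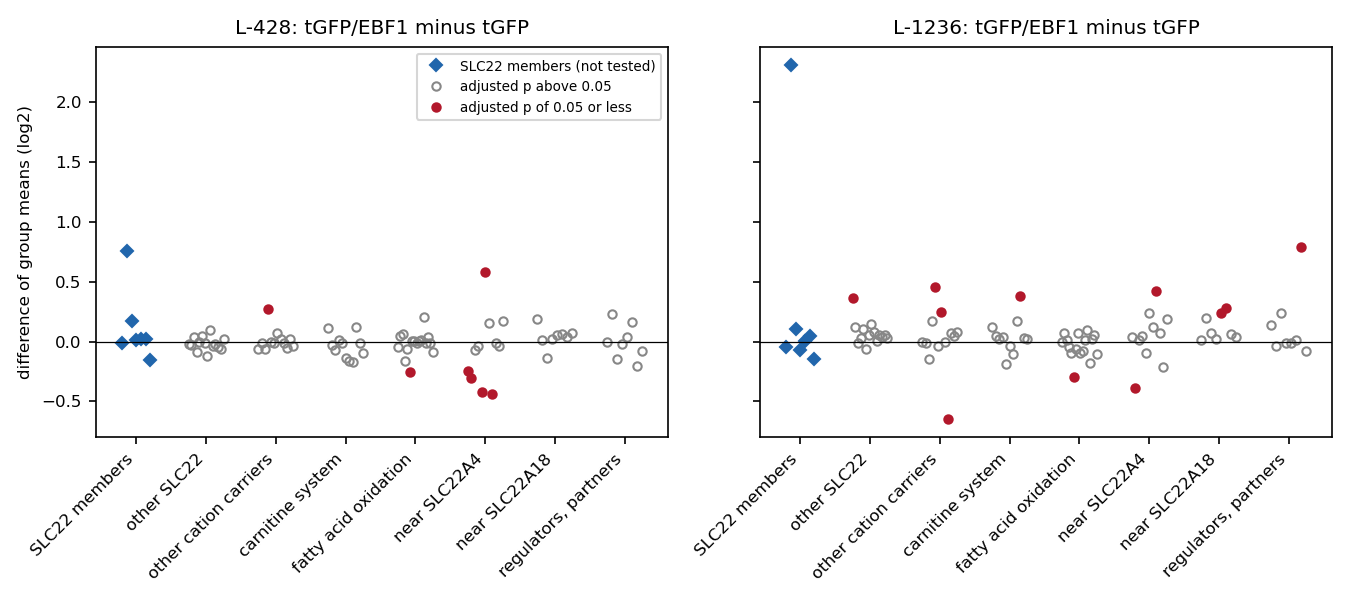
Difference tGFP/EBF1 minus tGFP (log2) of the 7 SLC22 members (diamonds, not tested) and of the genes of 7 lists (circles, filled where the adjusted p is 0.05 or less) in L-428 at left and L-1236 at right. SLC22A4 lies above every listed gene in both lines (0.76 and 2.31), the next being IRF1 (0.58) in L-428 and RUNX1 (0.79) in L-1236.

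The neighbours of SLC22A4 and SLC22A5 on chromosome 5 did not share a direction. PDLIM4, which RefSeq places next to SLC22A4 on the side away from SLC22A5, had 6.99, 7.21 and 7.09 in L-428 tGFP/EBF1 cells, against 7.09, 7.06 and 7.17 in L-428 tGFP cells (difference -0.011, limma, adjusted p = 0.99). In L-1236 its difference was 0.070 (limma, adjusted p = 0.765), with overlapping arrays. PDLIM4 was added for its position and not by the rule for named genes. IRF1, the interferon-induced transcription factor on the far side of SLC22A5, rose in L-428, with 10.59, 10.66 and 10.72 in tGFP/EBF1 cells, against 10.25, 10.10 and 9.88 in tGFP cells (difference 0.58 ± 0.076, limma, adjusted p = 9.4e-05). Its difference in L-1236 was 0.24 (limma, adjusted p = 0.0571), with no overlap of arrays.

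P4HA2, a prolyl hydroxylase of collagen synthesis beyond PDLIM4, moved opposite ways. It fell in L-428, with 9.99, 10.05 and 10.03 in tGFP/EBF1 cells, against 10.59, 10.53 and 10.27 in tGFP cells (difference -0.44 ± 0.078, limma, adjusted p = 0.0019). It rose in L-1236, with 10.02, 10.25 and 10.07 in tGFP/EBF1 cells, against 9.69, 9.70 and 9.68 in tGFP cells (difference 0.42 ± 0.078, limma, adjusted p = 0.00132). IL13, a cytokine made by Hodgkin cells, fell in both lines, by 0.30 in L-428 (limma, adjusted p = 0.00692) and by 0.39 in L-1236 (adjusted p = 0.000317). In L-1236 tGFP/EBF1 cells IL13 had 6.96, 6.86 and 6.78, below the array medians, against 7.24, 7.22 and 7.31 in L-1236 tGFP cells. Of the 11 neighbours with a row, 1 passed as higher and 4 as lower in L-428, while L-1236 had 1 of each. Over all rows, 4.34% passed in L-428 and 9.64% in L-1236. The count of 5 in L-428 was 3 under 6 of the alternatives, among them median centring, and the count of 2 in L-1236 was 5 after quantile normalization.

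Near SLC22A18, 0 of 8 measured genes passed in L-428 (limma, 1 at an unadjusted p under 0.05), where CARS1 (0.19, adjusted p = 0.126) and the growth inhibitor CDKN1C (-0.14, adjusted p = 0.468) came nearest. In L-1236, 2 rose and 0 fell, the opposite side to SLC22A18. Among all rows 4.34% passed in L-428 and 9.64% in L-1236. PHLDA2, an imprinted growth restrainer, had 9.58, 9.44 and 9.54 in L-1236 tGFP/EBF1 cells, against 9.28, 9.17 and 9.28 in L-1236 tGFP cells (difference 0.28 ± 0.061, limma, adjusted p = 0.00492). NAP1L4, a histone chaperone, was higher by 0.24 (limma, adjusted p = 0.033), a call lost with median centring, every row tested or only the 6 arrays compared (adjusted p from 0.0504 to 0.109). It was also lost without replicate 1 or 2 of L-1236 tGFP or replicate 2 or 3 of L-1236 tGFP/EBF1.

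Among 8 measured regulators or partners of SLC22 carriers, RUNX1, a haematopoietic transcription factor reported to act on SLC22A4, rose in L-1236. It had 8.49, 8.54 and 8.47 in L-1236 tGFP/EBF1 cells, against 7.67, 7.73 and 7.73 in L-1236 tGFP cells (difference 0.79 ± 0.073, limma, adjusted p = 6.67e-07). In L-428 it had 9.67, 9.58 and 9.53 in tGFP/EBF1 cells, against 9.89, 9.90 and 9.60 in tGFP cells, with overlapping arrays (difference -0.20, limma, adjusted p = 0.153). Between the control groups RUNX1 differed by 2.09 and SLC22A4 by -0.021 (log2, L-428 minus L-1236). A link between RUNX1 and the signal of SLC22A4 was not tested. While 9.64% of all rows passed in L-1236 and 4.34% in L-428, RUNX1 was the 1 gene of the list past the threshold in L-1236. There 2 genes of the list passed after quantile normalization. In L-428, 0 passed (limma, 3 at an unadjusted p under 0.05), NFKB1 (0.23, adjusted p = 0.117) being nearest, while 2 passed after quantile normalization and without replicate 3 of L-428 tGFP.

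The genes whose signal over the 12 arrays was most like that of SLC22A4, among 2765 rows with 1 symbol and a span of at least 1 log2 unit, were HIVEP3 (Pearson r = 0.985), CD79A (0.979), MAPKBP1 (0.973), THOP1 (0.972) and IL7 (0.966). CD79A encodes a signalling chain of the B-cell receptor and IL7 a growth factor of lymphocytes. Being chosen for likeness to SLC22A4, they are described with no test, and each had a higher mean with EBF1 in both lines, with the larger difference in L-1236: CD79A by 0.23 in L-428 and 1.18 in L-1236, IL7 by 0.26 and 1.37, and HIVEP3 by 0.29 and 0.94 (log2). None differed as much as SLC22A4 in either line. The 12 arrays share 4 group means, so that r mostly describes how those are arranged.

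For SLC22A5 the most like were MR1 (r = 0.982), IFI44L (0.981), RAP1GDS1 (0.981), LRP8 (0.980) and TAP2 (0.979). MR1 presents microbial metabolites to T cells, TAP2 is a subunit of the peptide transporter for MHC class I, and IFI44L is an interferon-induced gene. All 5 were lower in both L-428 groups than in both L-1236 groups. MR1 averaged 9.32 ± 0.050 in L-428 tGFP/EBF1 and 9.05 ± 0.23 in L-428 tGFP cells, against 10.45 ± 0.16 in L-1236 tGFP/EBF1 and 10.26 ± 0.043 in L-1236 tGFP cells (SD, n = 3 each).

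**Figure D4:**
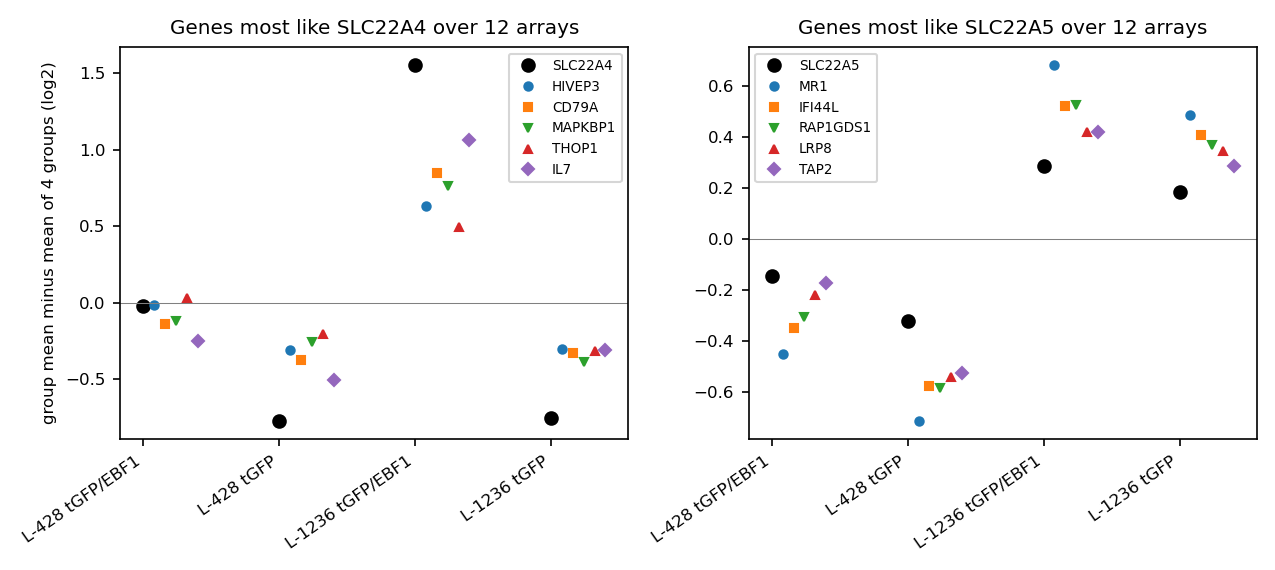
Group means minus the mean of the 4 groups (log2) for SLC22A4 (left) and SLC22A5 (right) with the 5 genes most like each by Pearson r over the 12 arrays. The genes at left peak in L-1236 tGFP/EBF1 cells, and those at right are higher in both L-1236 groups than in both L-428 groups.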

How the data were processed

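The values are log2 array signals that the authors deposited, 1 per row and array. The sources used here do not give their log base, summarization or normalization. Base 2 was inferred from the range of the values, 4.38 to 14.27. Per the labels, RNA was amplified and labelled with whole-transcript kits. Rows were named from the platform annotation, and the 7 member rows by symbol or gene ID. The values were fitted as deposited in limma 3.58.1 under R 4.3.3 (lmFit, eBayes, 4 group means, 12 arrays, no block), with Benjamini-Hochberg adjustment over 20546 rows with a symbol. Rows were called at an adjusted p of 0.05 and a 2-fold change, the limits of the design text; list genes "rose" or "fell" at the adjusted p alone. A listed gene with several rows is represented by the brightest. Members and lists were chosen with earlier results of these data known. Members have no p in the contrasts that picked SLC22A4, and SLC22A4 is given none between the lines.

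Named were all members, up to 3 passing genes of each list per contrast with EBF1 (or the nearest 2), for other SLC22 genes also between control groups, and the 5 genes most like SLC22A4 and SLC22A5. The fit was tested on simulated arrays. The number of arrays limits the precision. Of the 7 members 5 passed the filter on dim rows (above the array median on at least 3 arrays), SLC22A2 and SLC22A16 not. Promoter windows are RefSeq's, GRCh38.p14. Alternatives were quantile normalization, median centring, the dim filter, every row tested, trend and robust variance, only the 6 arrays compared, a replicate block, and each array left out. Figures used Python 3.11.15 and matplotlib 3.10.9.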

Additional observations from a re-analysis of the deposited data

Results flagged for a closer look

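The effect of EBF1 differed between the lines for 7 of the genes tested among EBF1, the cell markers and the genes named from lists. This is by the test of the difference itself (limma, L-428 minus L-1236), which 5.16% of all rows passed. Many of these genes were named for passing in 1 line, so the 7 are not compared with that share. Among list genes not named, NHERF1 also passed (-0.38, limma, adjusted p = 0.0437). For EBF1, the transduced gene, the difference of the effects was -1.46 (adjusted p = 1.15e-07), from 4.51 in L-428 and 5.97 in L-1236. Its signal was higher in L-428 tGFP than in L-1236 tGFP cells by 1.27 (limma, adjusted p = 3.52e-11). Between the tGFP/EBF1 groups it differed by only -0.19, L-428 minus L-1236. For TNFRSF8, a Hodgkin cell marker, it was -0.47 (adjusted p = 0.00768), from 0.041 and 0.51. For RUNX1 it was -0.99 (adjusted p = 9.22e-06), from -0.20 and 0.79. For P4HA2 it was -0.86 (adjusted p = 8.75e-05), from -0.44 and 0.42. For SLC44A2 it was -0.46 (adjusted p = 0.00841), from -0.0073 and 0.45. For SLC22A10 it was -0.38 (adjusted p = 0.0078), from -0.018 and 0.36. For SLC47A1 it was 0.63 (adjusted p = 0.00277), from -0.015 and -0.65; its signal in L-428 was 6.47 ± 0.11 in tGFP/EBF1 and 6.48 ± 0.17 in tGFP cells (SD, n = 3), below the array medians. Groups of 3 arrays were too small for a search for single outlying arrays.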

How the results depend on the processing

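The differences of SLC22A4 between tGFP/EBF1 and tGFP cells were 0.72 to 0.80 in L-428 and 2.22 to 2.45 in L-1236 over 13 alternatives each. For any member, only the scalings and leaving an array out could change a difference. As the arrays of SLC22A4 did not overlap, leaving 1 out could not turn its sign, so its kept direction was largely fixed beforehand. Between the lines, 165 member values were followed for their direction alone, those of SLC22A4 between control groups included although it has no test there. Of the 165, 157 kept their direction and 8 turned sign. Those 8 were SLC22A4 between control groups (0.035 after quantile normalization, 0.037 after median centring, and from -0.048 to 0.015 with single arrays left out), SLC22A16 between control groups (-0.020 to 0.071) and between tGFP/EBF1 groups (-0.0068 to 0.083) with single arrays left out, and SLC22A18 between tGFP/EBF1 groups (0.0044 after median centring). Of 191 untested member values, 14 turned sign, all between tGFP/EBF1 and tGFP cells: SLC22A2 in L-428 (-0.050 to 0.052) and L-1236 (-0.083 to 0.029), SLC22A15 in L-428 (-0.023 to 0.034), SLC22A16 in L-428 (-0.0069 to 0.056) and L-1236 (-0.044 to 0.062), and SLC22A17 in L-428 (-0.033 to 0.090). The direction of these 6 differences is not settled. After quantile normalization SLC22A2 (0.16, adjusted p = 0.0467) and SLC22A18 (-0.14, adjusted p = 0.0157) passed between the tGFP/EBF1 groups. Counts of called rows stayed within 1.5 times: 14 to 22 in L-428, 29 to 36 in L-1236. With the replicate block they were the counts of the fit without it: 20 in L-428, 30 in L-1236, 1571 between tGFP/EBF1 groups and 1479 between control groups. The block leaves each difference as it was, and the 2-fold limit lies far above the median SE, 0.069 in L-428. Equal counts therefore do not bear on pairing. Same-numbered arrays did not deviate together (correlations from -0.37 to 0.28). The count of rows whose effect differed between the lines, 1061, was 1865 after quantile normalization, 599 after median centring, 676 with every row tested, 885 with the replicate block, and 672 to 1457 with single arrays left out; the cause was not tested. No scaling moved the median of all rows by over 0.1. Signal over background was not measured here.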

Other observations

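Genes around carnitine differed between the lines in control cells, a pattern chosen after its values were seen. Of 11 genes of carnitine synthesis and acyl transfer, 2 were higher and 6 lower in L-428 tGFP than in L-1236 tGFP cells, where 47.9% of all rows passed (limma). CPT1A, the liver-type carnitine palmitoyltransferase that commits long-chain fatty acids to oxidation, was lower (-1.19 ± 0.065 SE, limma, adjusted p = 1.16e-11), as was SLC22A5. CRAT, the carnitine acetyltransferase, was higher (0.80, adjusted p = 6.24e-10), and so was SHMT1 (2.16, adjusted p = 1.27e-14), a serine hydroxymethyltransferase best known from folate metabolism. Of 16 fatty acid oxidation genes, 9 were higher and 0 lower in L-428 control cells, among them ACSL1 (0.95), ACADVL (0.76) and ECI1 (0.73), with a list median of 0.28 against -0.0063 over all rows.

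SLC47A1 was the listed carrier that differed most between the control groups, at 6.48 ± 0.17 in L-428 tGFP and 10.62 ± 0.077 in L-1236 tGFP cells (SD, n = 3; difference -4.14, limma, adjusted p = 5.5e-18). The neighbours of SLC22A4 that passed between the control groups, IL5 (1.72), IRF1 (1.01), P4HA2 (0.77), ACSL6 (0.74) and IL13 (0.56), were all higher in L-428, while SLC22A5 was lower. They are 5 of 11 neighbours, the other 6 not passing, and 47.9% of all rows passed.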
